A study of Homo sapiens with 10 samples.

Results

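Heat shock proteins and their DNAJ co-chaperones were followed in cells grown from H9, a human embryonic stem cell line, with and without overexpression of the RNA-binding protein DAZL. The genes were those of the HSPA, HSPB, HSPD, HSPE, HSPH, HSP90, DNAJA, DNAJB and DNAJC series, taken by gene name, with names ending in P and digits left out. These were 101 gene identifiers under 85 gene names, of 64940 genes in the table. RNA-seq had been made from 2 control libraries and 2 oeDAZL libraries. The sample labels describe the controls as wild-type cells that had differentiated spontaneously, and the oeDAZL libraries as human primordial germ cell-like cells (hPGCLCs) overexpressing DAZL. The study's methods describe hPGCLCs made with BMP4 and BMP8a, transduced with lentivirus for DAZL together with green fluorescent protein or for the fluorescent protein alone, and sorted. The series' design text and the study call the controls PGCLCs as well, which conflicts with the sample labels. If the labels hold, DAZL, virus and culture cannot be told apart in the comparison. The promoter that drove DAZL is not given in the sources used here. Nothing states that the replicates came from separate cultures, and P-values measure only the spread between these samples.

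Levels are given as TPM, a unit that corrects for transcript length and scales each library to the same total of 1000000. For DAZL itself the controls had 0 and 0.0333 TPM and the transgenic libraries 102 and 101 TPM, in the direction of the labels. Markers of primordial germ cells were uneven: NANOS3 was at 1.39 and 1.66 TPM in the controls and at 1.07 and 0.73 TPM with oeDAZL, and SOX17 lay between 2.52 and 3.35 TPM in the 4 libraries, while TFAP2C lay between 44.3 and 53.9 TPM and SOX15 between 59.2 and 73.2 TPM. The summed level of the 8 germ cell markers, most of it from TFAP2C and SOX15, was 144 and 125 TPM in the controls and 117 and 127 TPM with oeDAZL. None of the 7 tested had a P-value of at most 0.05. All 7 had a log2 fold change below 0, with a median of -0.13 against -0.08 over all tested genes. GABRP, which marks amnion-like cells, was between 1208 and 1408 TPM in all 4 libraries. These listed markers therefore did not set the oeDAZL libraries apart as the more germ cell-like group, and these libraries are named here by their transgene. POU5F1, counted here with the pluripotency markers, was higher with oeDAZL, at 22.4 and 20.4 TPM against 13.6 and 10.6 TPM in the controls. In these bulk samples, fewer cells of a type and less RNA per cell cannot be told apart.

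Chaperones hold unfolded proteins and help them to fold. HSP70 proteins bind short hydrophobic stretches in a cycle driven by ATP, DNAJ proteins (also called HSP40s or J proteins) bring clients to HSP70 and stimulate its ATPase through their J domain, and HSP110 proteins release the nucleotide. HSP90 acts later on a narrower range of clients, small heat shock proteins hold clients without ATP, and HSPD1 with HSPE1 forms the folding chamber of the mitochondrial matrix. Many of these genes are switched on by heat shock factor HSF1, while others are expressed at all times or in particular tissues such as the testis.

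HSF1 binds DNA at heat shock elements, arrays of the units GAA and TTC in alternation. Promoter windows from 250 bases before to 50 bases after each annotated start (RefSeq, GRCh38.p14) were searched on both strands for 3 such units with 2 bases between neighbouring units. A match was found for 7 of the 64 members with a window (10.9%), against 0.490% of all 35116 windows and 0.608% of all 27305 genes with a window. The sequences below show 6 of the 10 matches, 1 from each of 6 genes of different levels and differences, with the matched element in capitals, 5′ to 3′ on the strand of the gene.
HSP90AA1: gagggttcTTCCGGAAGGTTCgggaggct
HSP90AB1: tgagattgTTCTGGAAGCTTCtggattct
HSPA8: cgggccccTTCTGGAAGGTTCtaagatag
HSPA6: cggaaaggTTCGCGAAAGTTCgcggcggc
HSPD1: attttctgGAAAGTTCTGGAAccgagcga
DNAJA1: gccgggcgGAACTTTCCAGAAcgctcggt
The HSP90AA1 stretch lies at chr14:102087112-102087140 on the minus strand, with its element 88 bases before the start. That of HSP90AB1 is at chr6:44247823-44247851 on the plus strand, 112 bases before the start, and that of HSPA8 is at chr11:123062171-123062199 on the minus strand, 55 bases before it. The HSPA6 stretch is at chr1:161524458-161524486 on the plus strand, 74 bases before the start. The HSPD1 stretch, at chr2:197500060-197500088 on the minus strand, holds 1 of 2 overlapping matches, 240 bases before the second annotated start of the gene. HSPE1 is read from the opposite strand, and its own window begins beyond these matches, at position 197500129. The DNAJA1 element, in chr9:33025268-33025296 on the plus strand, begins 4 bases after the start. A second match was present in the windows of HSP90AB1 and HSPA8, and DNAJB6 held 1.

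Of the 101 members, 22 were listed at 0 in all 4 libraries, 17 had a mean below 1 TPM and were not tested, and 62 were tested. The tested members were fitted together with all 16687 genes with a mean of at least 1 TPM, by limma on log2(TPM + 1), a scale that understates the change of low genes. No member had an adjusted P-value under 0.05 (background 0.0599% of tested genes), the lowest adjusted P-value being 0.0836 for HSP90AA1. No member combined a fold of at least 2 on that scale with an unadjusted P-value of at most 0.05 (background 0.689%). At the unadjusted P-value of at most 0.05 alone, 13 members (21.0%) were higher in oeDAZL, where the background was 5.02%, and 3 members (4.84%) were lower, where the background was 15.2%. With another scaling of the libraries, the median of ratios, the split was 19 higher and 1 lower with backgrounds of 9.95% and 9.16%, and with quantile normalization it was 15 and 1 with 8.40% and 9.07%. The counts of members and of all tested genes both moved when single libraries were left out. The median log2 fold change of the members then ran from 0.04 to 0.06, and that of all tested genes from -0.10 to -0.06.

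Most differences were small. The median log2 fold change was 0.05 over the tested members and -0.08 over all tested genes, and 54 of the 62 members lay within 0.3 of 0. The log2 fold change was above 0 for 37 members (59.7%) and for 34.7% of all tested genes. Both oeDAZL libraries were above both controls for 22 members (35.5%, background 16.0%), both were below for 13 (21.0%, background 38.4%), and the groups overlapped for 27. The most highly expressed genes had another background. Among the 1611 genes of at least 100 TPM, 13.7% were higher and 13.5% lower at this P-value, and the median log2 fold change was 0.00. Of the 16 members of that level, 7 (43.8%) were higher and 0% lower, and their median was 0.10. This level limit was set after values had been seen. Together the members made up 0.812% and 0.816% of all TPM in the controls and 0.887% and 0.871% with oeDAZL.

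**Figure D1:**
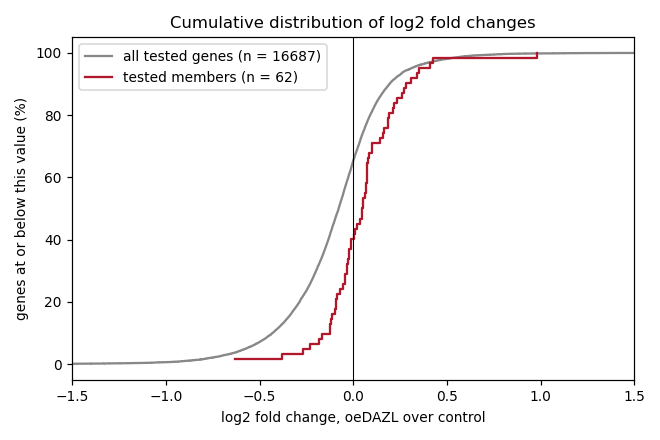
The lines show the share of genes (vertical axis, %) at or below each log2 fold change of oeDAZL over control (horizontal axis), in red for the 62 tested members and in grey for all 16687 tested genes. The red line lies to the right of the grey line near 0, with medians of 0.05 and -0.08.

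HSP90 genes held 41.0% of the members' TPM, and their summed level was 3322 and 3319 TPM in the controls and 3635 and 3622 TPM with oeDAZL. HSP90AA1 (ENSG00000080824, chr14:102080742-102139699, minus strand, 11 exons), the heat-inducible cytosolic HSP90, was at 738 and 750.0 TPM in the controls and at 1007 and 989 TPM with oeDAZL. The groups were well apart, and oeDAZL was 1.34-fold above control. The log2 fold change was 0.42 (SE 0.05, 95% confidence interval 0.30 to 0.54), with an unadjusted limma P-value of 0.000117, the lowest among the members. HSP90AB1, the cytosolic form expressed at all times and the most abundant member, was at 1704 and 1660.1 TPM in the controls and at 1701 and 1708 TPM with oeDAZL. Its groups overlapped, and the interval of its log2 fold change ran from -0.11 to 0.14. HSP90B1, the form of the endoplasmic reticulum (ER), was at 859 and 889 TPM in the controls and at 902 and 904 TPM with oeDAZL, with a log2 fold change of 0.05.

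The ratio of HSP90AA1 to HSP90AB1 within a library does not depend on how libraries are scaled. It was 0.433 and 0.452 in the controls and 0.592 and 0.579 with oeDAZL, 1.32 times higher with oeDAZL, and the groups did not overlap. The processed pseudogene HSP90AA2P was also above its controls, with 7.74 and 8.48 TPM against 10.6 and 11.7 TPM (log2 fold change 0.41, unadjusted limma P-value 0.0146). It shares most of its sequence with HSP90AA1, and its level was 0.0105 to 0.0118 of that gene's in all 4 libraries, so its value is uncertain. HSP90AB3P, another pseudogene, was between 9.05 and 13.1 TPM, with overlapping groups.

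The HSP70 genes were led by constitutive members. HSPA8, the cytosolic HSP70 present in all cells, was at 1149 and 1121 TPM in the controls and at 1242 and 1189.8 TPM with oeDAZL, a log2 fold change of 0.10 (unadjusted limma P-value 0.110). HSPA5, the HSP70 of the ER (BiP), was at 461 and 440.1 TPM in the controls and at 425 and 422 TPM with oeDAZL (log2 fold change -0.09, unadjusted limma P-value 0.134). The groups of both genes did not overlap, in opposite directions, and neither passed. HSPA9, the mitochondrial form, was between 145 and 161 TPM with overlapping groups. HSPA13, an HSP70-like protein of the ER and microsomes, was at 39.9 and 40.0 TPM in the controls and at 34.3 and 36.7 TPM with oeDAZL (log2 fold change -0.17, unadjusted limma P-value 0.0621).

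HSPA2 (ENSG00000126803, chr14:64535905-64546173, plus strand), the testis-enriched HSP70 required in mouse spermatogenesis, had the largest log2 fold change among the tested members. It was at 5.80 and 7.89 TPM in the controls and at 15.3 and 13.4 TPM with oeDAZL, a 2.097-fold difference in TPM. On the log2(TPM + 1) scale the difference was 0.98 (SE 0.16, 95% confidence interval 0.58 to 1.38), with an unadjusted limma P-value of 0.000874 and an adjusted one of 0.0896. Its ratio to HSPA8 within a library was 0.00505 and 0.00704 in the controls and 0.0123 and 0.0113 with oeDAZL, so it stayed a minor HSP70 transcript in every library. The other members enriched in testis or germ cells were low. HSPA4L was between 1.32 and 1.89 TPM with overlapping groups, HSPA1L, DNAJB7, DNAJB13 and HSPB9 stayed below 0.5 TPM in every library, and DNAJC5B did not exceed 0.0532 TPM. Of the 10 genes listed as testis or germ cell members, 7 were above 0 in some library and 2 were tested.

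HSPA14 (chr10:14838306-14871741, plus strand), which works with DNAJC2 at the ribosome, was at 29.0 and 31.0 TPM in the controls and at 40.2 and 37.0 TPM with oeDAZL. The log2 fold change was 0.35 with an unadjusted limma P-value of 0.00485. DNAJC2, its partner, was at 41.6 and 43.5 TPM against 47.0 and 43.4 TPM, with overlapping groups. A second entry under the name HSPA14, called MSANTD7 in GENCODE 44 and overlapping the gene's 5′ end, was between 15.2 and 17.8 TPM with overlapping groups. HSPA12A, a distant HSP70 relative, was lower, at 6.05 and 4.60 TPM in the controls and 2.35 and 3.92 TPM with oeDAZL (log2 fold change -0.63, unadjusted limma P-value 0.0383).

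The heat-inducible HSP70 genes were low. HSPA1A was at 10.4 and 9.16 TPM in the controls and at 9.47 and 9.76 TPM with oeDAZL, and HSPA1B was at 5.99 and 5.47 TPM against 5.31 and 5.25 TPM. These genes are nearly identical and the study kept uniquely mapped reads, so their levels are uncertain. HSPA6, induced from near 0 by strong stress in human cells, did not exceed 0.105 TPM in any library. A further 15 identifiers that GENCODE 44 does not list, 4 each of HSPA1A, HSPA1B and HSPA1L among them, were at 0 throughout.

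The HSP110 genes HSPA4 and HSPH1, which exchange the nucleotide of HSP70, were above their controls without passing. HSPA4 was at 123 and 119.7 TPM in the controls and 129 and 131 TPM with oeDAZL, and HSPH1 at 52.05 and 51.0 TPM against 62.3 and 53.8 TPM. Their unadjusted limma P-values were 0.115 and 0.102.

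**Figure D2:**
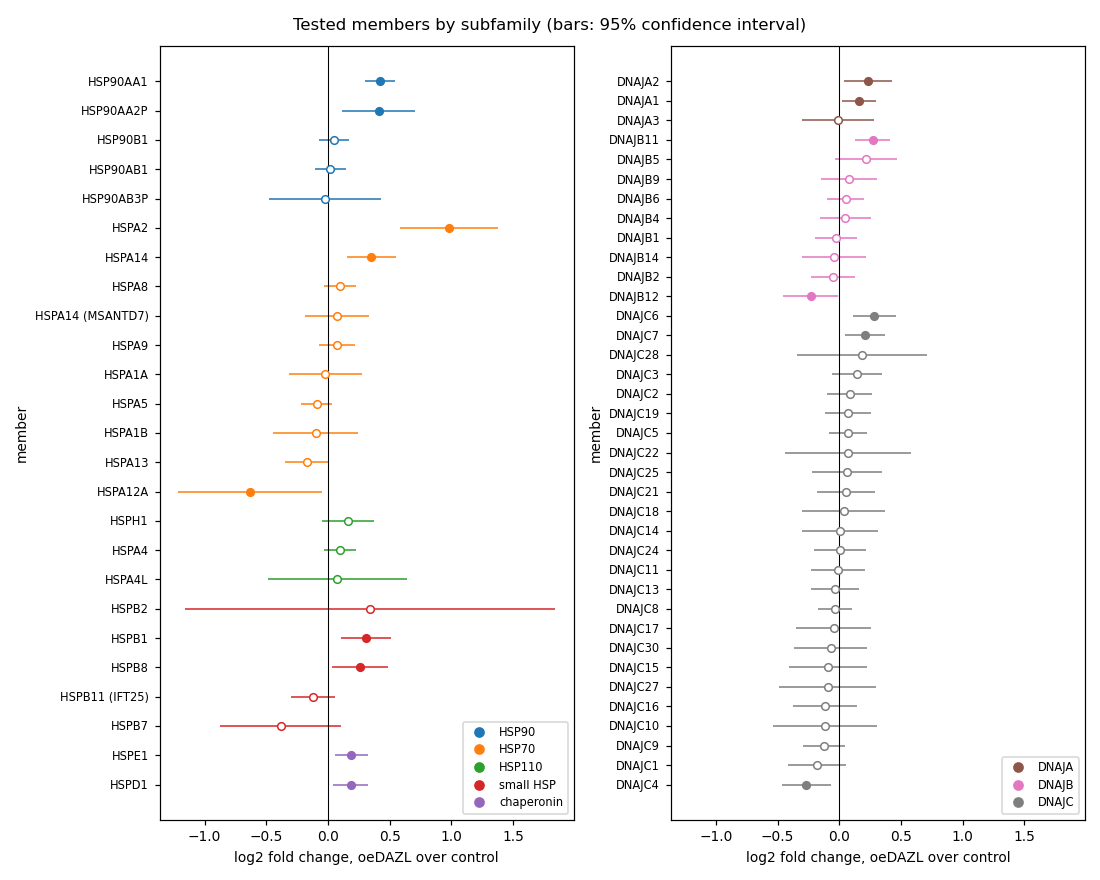
Log2 fold changes of oeDAZL over control (horizontal axes) are shown with 95% confidence intervals for the 62 tested members (vertical axes), coloured by subfamily. Filled points have an unadjusted limma P-value of at most 0.05, 13 above 0 and 3 below. HSPA2 lies farthest to the right at 0.98 and HSPA12A farthest to the left at -0.63.

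The mitochondrial chaperonin pair had similar log2 fold changes. HSPD1 (chr2:197486584-197516737, minus strand, 12 exons), the chamber subunit, was at 512 and 554 TPM in the controls and at 608 and 602 TPM with oeDAZL. HSPE1 (chr2:197500140-197503449, plus strand, 4 exons), its lid, was at 189 and 198 TPM in the controls and at 226 and 216 TPM with oeDAZL. Both genes had oeDAZL above control in every pairing of libraries, with log2 fold changes of 0.18 and 0.19 and unadjusted limma P-values of 0.0185 and 0.0140. The ratio of HSPE1 to HSPD1 was between 0.357 and 0.371 in the 4 libraries. Among the other mitochondrial members, HSPA9 and the J protein DNAJA3 had overlapping groups, DNAJA3 lying between 19.4 and 22.9 TPM.

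Among small heat shock proteins, HSPB1 (HSP27, chr7:76302673-76304295, plus strand, 3 exons) held most of the level. It was at 341 and 398 TPM in the controls and at 469 and 442 TPM with oeDAZL, a log2 fold change of 0.31 (unadjusted limma P-value 0.00994), and the controls differed more from each other than the oeDAZL libraries did. HSPB8, which acts with BAG3 in clearing misfolded proteins, was at 26.5 and 30.6 TPM in the controls and at 34.6 and 34.1 TPM with oeDAZL (log2 fold change 0.26, unadjusted limma P-value 0.0298). BAG3, a co-chaperone that is no member, was at 51.9 and 64.3 TPM in the controls and at 62.9 and 60.2 TPM with oeDAZL, with overlapping groups. HSPB11, an intraflagellar transport protein now called IFT25, was at 41.4 and 43.7 TPM against 38.0 and 39.9 TPM and did not pass. HSPB7, a muscle form, was at 2.83 and 2.75 TPM against 1.65 and 2.20 TPM, also without passing. HSPB2 was listed at 0 in 1 control and at 3.02 TPM in the other, too unlike for a comparison.

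The co-chaperones of the DNAJA series include the principal cytosolic J proteins. DNAJA1 was at 186 and 190.2 TPM in the controls and 216 and 204 TPM with oeDAZL (log2 fold change 0.16, unadjusted limma P-value 0.0286). DNAJA2 was at 65.2 and 71.1 TPM in the controls and 84.6 and 76.1 TPM with oeDAZL (log2 fold change 0.23, unadjusted limma P-value 0.0255). Both had all oeDAZL values above all control values.

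In the DNAJB series, DNAJB6, DNAJB1 and DNAJB11 had similar levels, and DNAJB11 alone of these had groups that did not overlap. DNAJB1, the heat-inducible partner of HSPA8, was at 109 and 98.0 TPM in the controls and at 100.4 and 102 TPM with oeDAZL, and DNAJB6, which suppresses aggregation, was between 101 and 109.6 TPM. The intervals of their log2 fold changes were -0.20 to 0.14 and -0.10 to 0.20. DNAJB2 lay between 49.0 and 54.1 TPM and DNAJB14, a J protein of the ER membrane, between 23.5 and 28.0 TPM, both with overlapping groups. DNAJB11 (chr3:186567403-186585800, plus strand, 10 exons), a soluble ER co-chaperone of HSPA5, was at 89.2 and 93.0 TPM in the controls and 111 and 109 TPM with oeDAZL. Its log2 fold change was 0.27, with an unadjusted limma P-value of 0.00317 and an adjusted one of 0.106. That of HSPA5 itself was -0.09, about the median of -0.08 over all tested genes. DNAJB12, a J protein of the ER membrane, was at 22.8 and 21.0 TPM in the controls and 18.1 and 18.8 TPM with oeDAZL (log2 fold change -0.23, unadjusted limma P-value 0.0418).

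The DNAJC series is the largest and most varied, with J domains attached to proteins of many compartments. Of its 29 members 25 were tested, 13 with a log2 fold change above 0 and 12 below, and the median was 0.00. DNAJC7, which binds both HSP70 and HSP90 through tetratricopeptide repeats, was at 134 and 145 TPM in the controls and 166 and 156 TPM with oeDAZL (log2 fold change 0.21, unadjusted limma P-value 0.0182). DNAJC6, the auxilin that recruits HSPA8 to strip clathrin from vesicles, was at 33.1 and 33.7 TPM against 41.9 and 39.8 TPM (log2 fold change 0.28, unadjusted limma P-value 0.00720). Both had every oeDAZL value above every control value. DNAJC4 (chr11:64230278-64234286, plus strand) was the reverse, at 41.4 and 37.8 TPM in the controls and 31.7 and 33.7 TPM with oeDAZL (log2 fold change -0.27, unadjusted limma P-value 0.0168). DNAJC8, a splicing-associated protein, lay between 137 and 144 TPM and DNAJC11, of the mitochondrial membranes, between 56.4 and 65.1 TPM, both with overlapping groups. DNAJC1, of the ER membrane, was at 60.4 and 64.4 TPM in the controls and at 59.7 and 50.3 TPM with oeDAZL without passing. DNAJC5, the cysteine string protein of vesicles, was at 52.004 and 51.2 TPM against 53.9 and 54.6 TPM, also without passing.

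**Figure D3:**
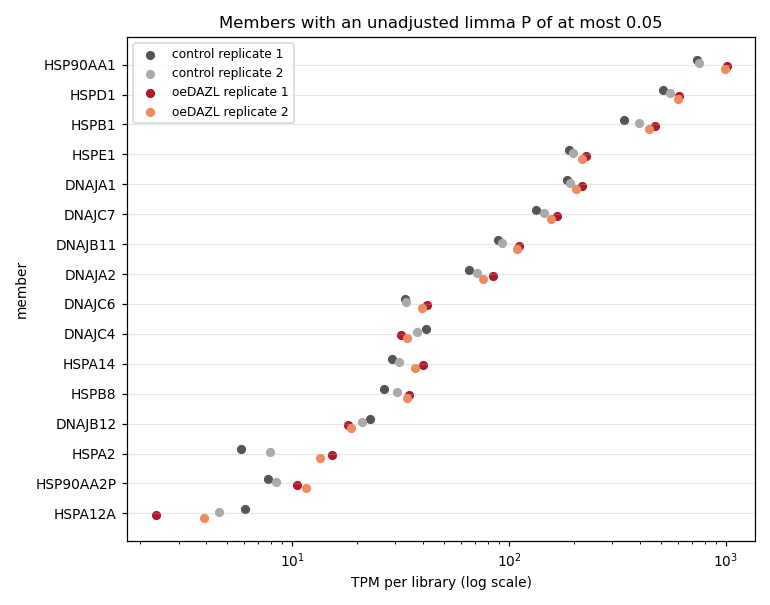
TPM per library (horizontal axis, log scale) is plotted for the 16 members with an unadjusted limma P-value of at most 0.05 (vertical axis). Each point is a library, grey for control and red or orange for oeDAZL. In 13 members both oeDAZL points lie to the right of both control points, and in DNAJC4, DNAJB12 and HSPA12A they lie to the left.

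Of all tested genes, 5.02% were higher and 15.2% lower at an unadjusted limma P-value of at most 0.05. Of those of at least 100 TPM, 13.7% were higher and 13.5% lower. Grouped by place and use, the cytosolic heat-inducible members had a median log2 fold change of 0.16, with 6 of 13 tested higher at this P-value and none lower. The 6 were HSP90AA1, HSPB1, HSPB8, DNAJA1, HSPD1 and HSPE1, all but HSPB8 above 100 TPM. That count was 8 under the median of ratios (background 9.95%) and 6 under quantiles (8.40%). It was 5 with a replicate block (4.02%) and 1 with limma without a mean trend (3.39%). Leaving out each library in turn, the list's median ran from 0.07 to 0.19. The chaperonin pair in that list resides in mitochondria and is counted again below with the mitochondrial members. HSPA8, also in that list, is the constitutive form. In that list 10 of the 13 tested had a log2 fold change above 0. HSPA1A, HSPA1B and DNAJB1 had -0.02, -0.10 and -0.03, near the median of -0.08 over all tested genes. HSPH1, HSPA8, HSPA4L and DNAJB4 had 0.16, 0.10, 0.08 and 0.05 without passing. Of the 10 ER members on their list, which leaves out DNAJB12 and DNAJB14, DNAJB11 was higher and none was lower, and of the 10 mitochondrial members 2 were higher (HSPD1 and HSPE1) and 1 lower (DNAJC4). Of the 7 tested muscle and neuron members, 2 were higher (HSPB8 and DNAJC6). The 6 tested members with a match to the searched pattern had a median log2 fold change of 0.13, with 3 higher at this P-value (HSP90AA1, HSPD1 and DNAJA1). All 6 were above 100 TPM, and the 16 members of at least 100 TPM as a whole had a median of 0.10, with 43.8% higher. The 47 tested members with a window and no match had a median of 0.03, with 8 higher and 3 lower. Members with and without a match were not matched for level. HSP90AB1 carries 2 matches and HSP90AA1 carries 1, and of this pair HSP90AA1 alone passed that P-value.

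The factors that act on these chaperones were examined from lists. HSF1 was at 71.0 and 73.3 TPM in the controls and at 66.7 and 63.5 TPM with oeDAZL (log2 fold change -0.15, unadjusted limma P-value 0.0582), and HSF2 was at 22.4 and 19.4 TPM against 24.0 and 22.6 TPM. None of the 4 tested genes of the heat shock factor list passed in either direction. Of 17 nucleotide exchange factors and other co-chaperones of HSP70, none was higher and 3 (17.6%) were lower, close to the 15.2% of all tested genes: BAG1 (34.9 and 29.3 against 24.6 and 25.6 TPM), HSPBP1 (65.0 and 69.0 against 57.0 and 58.3 TPM) and SIL1 (20.3 and 16.9 against 14.8 and 14.9 TPM). The count lower was 1 with limma without a mean trend (background 13.9%) and 2 with a replicate block (background 12.6%). Leaving out each library in turn, the median log2 fold change of that list ran from -0.04 to 0.01. The sign of that list's median depended on scaling: it was -0.01 here, 0.06 under the median of ratios (2 higher, 1 lower) and 0.04 under quantiles (3 higher, 2 lower).

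Of 16 HSP90 co-chaperones, 4 were higher and none lower: STIP1, which links HSP70 to HSP90, PTGES3, the p23 protein, SUGT1 and CACYBP. The background was 5.02%. The count was 6 under the median of ratios (background 9.95%) and 4 under quantiles (8.40%). It was 0 with limma without a mean trend (3.39%) and 1 with a replicate block (4.02%). Leaving out each library in turn, the list's median log2 fold change ran from 0.06 to 0.13. STIP1 was at 221 and 226 TPM in the controls and 254 and 239.9 TPM with oeDAZL, and PTGES3 at 337 and 354 TPM against 385 and 386 TPM. The median log2 fold change of that list was 0.07. The cytosolic chaperonin TRiC, which folds actin and tubulin, had 5 of 8 subunits higher (TCP1, CCT3, CCT4, CCT6A and CCT8), all 8 had a log2 fold change above 0 with TPM as deposited, median-of-ratios scaling and quantile normalization, and the median was 0.14. The background was 5.02%, or 13.7% among genes of at least 100 TPM, to which all 8 belong. The count of 5 became 8 under the median of ratios (background 9.95%) and stayed 5 under quantiles (8.40%). It was 1 with limma without a mean trend (3.39%) and 1 with a replicate block (4.02%). Leaving out each library in turn, the list's median ran from 0.11 to 0.16. CCT6A was at 240.2 and 241 TPM in the controls and 294 and 281 TPM with oeDAZL, with a log2 fold change of 0.25 and an unadjusted limma P-value of 0.00277. Prefoldin, which hands clients to TRiC, had none of 6 subunits past that P-value and a median of 0.07. Of 14 tested heat-inducible genes outside the families, HMOX1 and STIP1 were higher (14.3%, background 5.02%). STIP1 is the gene already counted among the HSP90 co-chaperones. The count higher was 5 under the median of ratios (background 9.95%) and 2 under quantiles (8.40%). It was 1 with a replicate block (4.02%) and 0 with limma without a mean trend (3.39%). The collagen chaperone SERPINH1 and IER5 were lower (14.3%, close to the background of 15.2%). SERPINH1 was at 476 and 534 TPM in the controls and 429 and 455 TPM with oeDAZL.

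**Figure D4:**
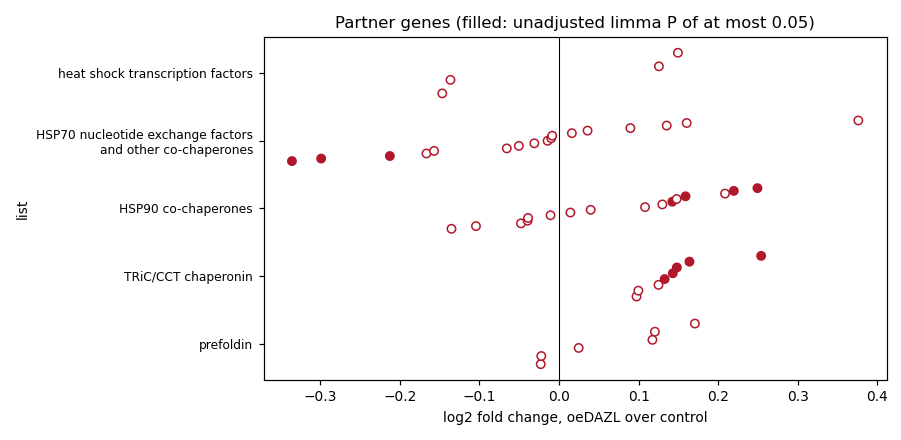
Log2 fold changes of oeDAZL over control (horizontal axis) are shown for the tested genes of 5 lists of chaperone partners (vertical axis), 1 point per gene. Filled points have an unadjusted limma P-value of at most 0.05: 3 below 0 among HSP70 co-chaperones, 4 above 0 among HSP90 co-chaperones and 5 above 0 in TRiC.

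Markers of other cell types moved with the comparison, and their part in the chaperone differences was not tested. COL3A1 and COL1A1, collagens of mesenchymal cells, were lower with oeDAZL, COL3A1 at 583 and 479 TPM against 224 and 220.4 TPM (adjusted limma P-value 0.0344). TBXT was at 2.49 and 1.25 TPM in the controls and 0.319 and 0.546 TPM with oeDAZL (unadjusted limma P-value 0.0180). HAND1 was at 958 and 1042 TPM against 1250.0 and 1247 TPM, and the summed level of the 6 mesoderm and mesenchyme markers was 3426 to 3636 TPM in the 4 libraries, with 1 higher (HAND1) and 3 lower (COL1A1, COL3A1 and TBXT). Among the 6 pluripotency markers, POU5F1 was at 13.6 and 10.6 TPM in the controls and 22.4 and 20.4 TPM with oeDAZL and TDGF1 at 5.05 and 8.26 TPM against 14.1 and 10.6 TPM, and NANOG stayed between 0.43 and 0.81 TPM. LIN28A, at 476 and 428 TPM in the controls and 417 and 401 TPM with oeDAZL, made up most of that list's sum, which was 451 to 501 TPM in the controls and 434 to 457 TPM with oeDAZL. SOX2 was at 5.16 and 2.57 TPM against 2.16 and 2.04 TPM, and neither LIN28A nor SOX2 passed. The 6 amnion and trophoblast markers summed to 2158 to 2346 TPM in the 4 libraries, with ISL1 and CGA lower (33.3%, background 15.2%). Of the 2 tested neural markers PAX6 was lower (50%, background 15.2%), at 3.83 and 1.14 TPM against 0.0967 and 0.558 TPM. TUBB3, at 179 and 229 TPM against 249 and 225 TPM, did not pass, and SOX1 and NEUROD1 were at most 0.304 TPM. Of the 4 endoderm markers AFP was lower (25%, background 15.2%), at 36.3 and 13.1 TPM against 8.91 and 11.6 TPM. APOA1, GATA6 and FOXA2 did not pass. For PAX6 and AFP control replicate 1 was well above control replicate 2. The mitochondrial genome gave 12.6% and 13.4% of TPM in the controls and 14.1% and 13.9% with oeDAZL.

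The members below the filter added little. DNAJA4 was at 0.115 and 0.520 TPM in the controls and at 0.523 and 0.729 TPM with oeDAZL, so that the groups nearly touched. HSP90B2P lay between 0.462 and 0.741 TPM and HSPB6 between 0.275 and 0.725 TPM, both with overlapping groups. HSPA12B reached 0.516 TPM, and DNAJC12 was at 0.513 TPM in 1 control and listed at 0 in the other libraries.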

How the data were processed

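RNA-seq of 2 control and 2 oeDAZL samples was analysed, and 6 small RNA samples of the series were not analysed here. Per the labels and methods, the authors trimmed reads, aligned them to hg38 with HISAT2 (version 2.1.0), kept uniquely mapped reads and deposited TPM values per gene made with StringTie (version 2.1.4). The annotation release is not given in the sources used here, and read depth is unknown, so no counting interval can be given. From 65003 entries, 45 on the Y copy of the pseudoautosomal regions and 18 repeats were left out. Genes with a mean of at least 1 TPM were fitted with limma (version 3.58.1, R 4.3.3) with a mean trend on log2(TPM + 1), without a replicate block, and P-values were adjusted by Benjamini-Hochberg over all 16687. An exact permutation test of 2 against 2 cannot go below 0.333. Members and lists were chosen with earlier results of these data known. Coordinates and exons are from GENCODE 44 on GRCh38, in which 86 of 101 identifiers were found, 13 of them pseudogenes. Named were the 5 most abundant members of each subfamily, members and listed genes with an unadjusted P-value of at most 0.05, and untested members above 0.5 TPM. The script was tested on simulated data.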

Additional observations from a re-analysis of the deposited data

How the results depend on the processing

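HSP90AA1, HSPA2 and DNAJB11 kept an unadjusted P-value of at most 0.05 under all 12 alternatives run for single genes, the other 13 called members lost it under 1 or more, and no called member changed sign. With 2 libraries a group, single libraries weighed heavily. Leaving out each library in turn gave 0 to 3 members with an adjusted P-value under 0.05 (3 without control replicate 2: HSP90AA1, HSPB1 and HSPA2, 4.84% of members against 4.03% of all tested genes), 4 to 15 higher at an unadjusted P-value of at most 0.05 (4 without oeDAZL replicate 1), 1 to 5 lower, 0 to 2 with a fold of at least 2, and a median log2 fold change of 0.0396 to 0.0647. Without a mean trend 6 members were higher (9.68%, background 3.39%). Median-of-ratios scaling and quantile normalization each left 1 member lower, and these, a pseudocount of 0.1 and TPM without mitochondrial genes each gave 1 member (HSPA2) with a fold of at least 2. The median log2 fold change of the members was 0.0203 with no filter on TPM, 0.128 under the median of ratios, 0.0951 under quantiles and 0.0668 without mitochondrial genes. Under the median of ratios DNAJB1 (0.0545), DNAJC8 (0.0479) and HSPA1A (0.0556) turned to above 0, as did HSPA1A (0.0955) under quantiles. Without 1 library each, DNAJB1 ran from -0.105 to 0.0484 and HSPA1A from -0.104 to 0.0633. Same-numbered replicates did not deviate together (correlation -0.10), so the numbers were not taken as pairs. With a replicate block 12 members were higher (19.4%, background 4.02%) and 2 lower (3.23%, background 12.6%). In that fit 0 had an adjusted P-value under 0.05 or a fold of at least 2, and the median was 0.05. A crossed pairing, added after seeing the data, gave 5 members with an adjusted P-value under 0.05 (8.06%, against 6.53% of all tested genes). The causes of these shifts were not tested.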
